A study of Arabidopsis thaliana with 18 samples.

Results

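The mitochondrial stress response genes described here are 9 nuclear genes of Arabidopsis thaliana, of 30014 genes in the array table. They were chosen by locus code: AOX1A (AT3G22370), AOX1D (AT1G32350), NDB2 (AT4G05020), UPOX (AT2G21640), OM66 (AT3G50930), NAC013 (AT1G32870), NAC017 (AT1G34190), UGT74E2 (AT1G05680) and UGT73B4 (AT2G15490). All 9 were found in the table, and no filter on low values was applied. The choice was made with earlier results of these same arrays known, and which measured values led to it was not recorded. The levels and differences below are therefore a description, and each p-value places a gene among all genes of the table without being independent support for the choice.

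Total RNA was hybridised to 18 Affymetrix AGRONOMICS1 arrays in 6 groups of 3. The mutant rdo5-1, untreated, was sampled as siliques at 14 days after pollination, as freshly harvested dry seeds and as seeds imbibed for 6 h. NIL-DOG1, which the labels give as wildtype and which is a near-isogenic line carrying the name of the dormancy gene DOG1, was sampled untreated at the same 3 stages. Plants of both lines grew on soil under 16 h of light and 8 h of dark. The labels do not say whether rdo5-1 carries the introgression for which NIL-DOG1 is named, nor how many plants gave each sample.

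When mitochondrial electron transport is impaired, plant cells switch on a set of nuclear genes, a route known as mitochondrial retrograde signalling. The membrane-anchored transcription factors NAC013 and NAC017 are released from the endoplasmic reticulum and move to the nucleus, where they bind promoters of genes such as AOX1A. Alternative oxidases pass electrons from ubiquinol straight to oxygen without pumping protons, so that respiration can go on when the cytochrome pathway is blocked. Seed imbibition restarts respiration in mitochondria that have been dry.

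Deposited values were RMA-normalised log2 signals, 1 per gene and array, ranging over 1.89 to 14.67 with array medians of 4.03 to 4.35. Pearson's r between arrays of a group was 0.990 to 0.995 across genes. RDO5 (AT4G11040), the gene that gives the mutant its name and that encodes a protein of the PP2C phosphatase family, averaged 5.53 ± 0.41 in rdo5-1 siliques and 6.53 ± 0.06 in NIL-DOG1 siliques (SD, n = 3 each). It averaged 9.51 ± 0.11 in rdo5-1 dry seeds against 10.44 ± 0.03 in NIL-DOG1 dry seeds, and 8.46 ± 0.03 in rdo5-1 imbibed seeds against 9.80 ± 0.01 in NIL-DOG1 imbibed seeds. The tissues were checked against markers, and 5 photosynthesis genes averaged 11.21 to 11.90 in rdo5-1 siliques and 11.06 to 11.79 in NIL-DOG1 siliques, and between 4.58 and 6.76 in the seed groups. The 5 seed markers stood at 13.42 to 14.41 in seeds. In siliques, which held both seeds and pod tissue, they stood at 5.87 to 14.44 in rdo5-1 and 5.19 to 14.42 in NIL-DOG1. In such bulk samples, fewer cells of a type and less RNA per cell cannot be told apart.

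In imbibed seeds, AOX1A and UGT73B4 were higher in rdo5-1 than in NIL-DOG1, by 2.17-fold and 2.75-fold. These 2 of the 9 genes passed an adjusted p of 0.05 (limma, Benjamini-Hochberg over all genes), both upward, in a comparison that called 0.633% of all genes. None of the 9 was called in siliques, where 0.200% of all genes were, or in dry seeds, where 0.137% were. At an unadjusted p under 0.05, limma gave 1 of the 9 for siliques, 2 for dry seeds and 5 for imbibed seeds, where the shares of all genes were 8.89%, 8.34% and 8.31%. Over the 9 genes the median log2 fold change was 0.05 for siliques, 0.0027 for dry seeds and 0.31 for imbibed seeds, where all genes had medians of 0.0017, 0.0015 and -0.0031. Differences above 0 were found for 5, 5 and 6 of the 9 at these stages.

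**Figure D1:**
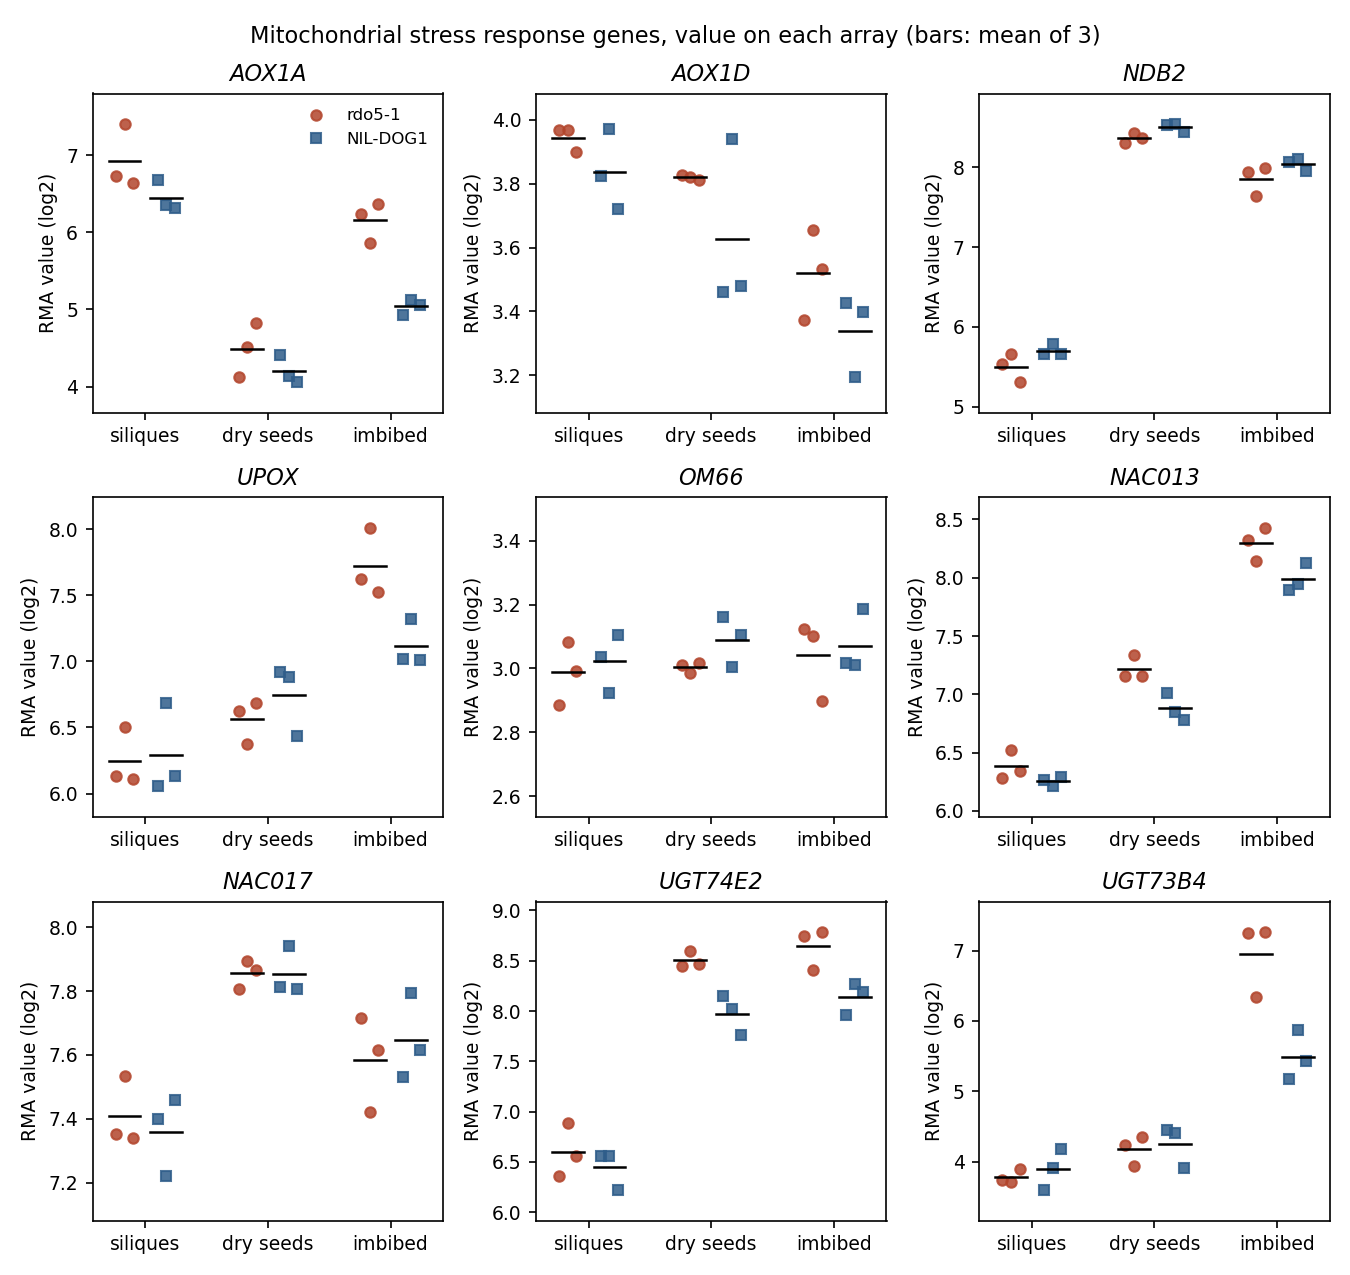
Each panel plots the log2 RMA value of 1 gene on every array (vertical axis, its own range per gene) in siliques, dry seeds and imbibed seeds, with rdo5-1 as circles left of NIL-DOG1 as squares and the mean of 3 arrays as a bar. In imbibed seeds the 3 rdo5-1 arrays lie above all 3 NIL-DOG1 arrays for AOX1A, UPOX, NAC013, UGT74E2 and UGT73B4. Of these, only AOX1A and UGT73B4 were called. The share of all genes separated in this way was not computed at any stage. Separation of the arrays, here and in the text, is therefore a description and no support for a difference.

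AOX1A encodes the main stress-inducible alternative oxidase. Its log2 value was 6.73, 7.40 and 6.64 in rdo5-1 siliques, against 6.68, 6.35 and 6.32 in NIL-DOG1 siliques, with 1 rdo5-1 array inside the NIL-DOG1 range. Dry seeds had 4.12, 4.51 and 4.82 in rdo5-1 and 4.41, 4.14 and 4.06 in NIL-DOG1, and the groups overlapped. Imbibed seeds had 6.24, 5.86 and 6.36 in rdo5-1, against 4.93, 5.12 and 5.06 in NIL-DOG1. Every rdo5-1 imbibed array was thus above every NIL-DOG1 one, and the means were 6.15 ± 0.26 and 5.04 ± 0.10 (SD, n = 3 each). The log2 fold change was 1.11 with a standard error of 0.20 and a 95% interval of 0.68 to 1.54 (limma adjusted p = 0.0162). It was 0.48 in siliques (adjusted p = 0.509) and 0.28 in dry seeds (adjusted p = 0.765).

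The imbibed AOX1A call rests on few arrays. Its adjusted p was 0.0873 without rdo5-1 replicate 1, 0.0933 without rdo5-1 replicate 3, 0.0813 without NIL-DOG1 replicate 1 and 0.0622 without NIL-DOG1 replicate 3, while the log2 fold change stayed between 1.01 and 1.26 with any 1 of the 6 arrays left out. In the order of group means, both silique groups came first, then rdo5-1 imbibed, NIL-DOG1 imbibed, rdo5-1 dry and NIL-DOG1 dry seeds. The arrays of NIL-DOG1 imbibed seeds overlapped neither neighbour in that order, and each other pair of neighbours overlapped.

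AOX1D, a second stress-inducible alternative oxidase, had group means at percentiles 30.7 to 44.4 of all signals in the table, which place a probe signal and not the abundance of a transcript. It had 3.97, 3.97 and 3.90 in rdo5-1 siliques and 3.82, 3.97 and 3.72 in NIL-DOG1 siliques. Dry seeds had 3.83, 3.82 and 3.81 in rdo5-1 and 3.46, 3.94 and 3.48 in NIL-DOG1, and imbibed seeds had 3.37, 3.65 and 3.53 in rdo5-1 and 3.43, 3.19 and 3.40 in NIL-DOG1. The genotypes overlapped at every stage, as did every pair of neighbours in the order of its 6 group means. Its genotype differences were 0.11, 0.19 and 0.18 from siliques to imbibed seeds, with adjusted p of 0.868, 0.690 and 0.769.

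NDB2 encodes a dehydrogenase on the outer face of the inner mitochondrial membrane, which feeds electrons from cytosolic NADH to ubiquinone and so can supply an alternative oxidase. Its log2 value was 5.53, 5.66 and 5.31 in rdo5-1 siliques and 5.66, 5.78 and 5.66 in NIL-DOG1 siliques. Dry seeds had 8.31, 8.43 and 8.37 in rdo5-1 and 8.53, 8.54 and 8.44 in NIL-DOG1, and imbibed seeds had 7.94, 7.64 and 7.99 in rdo5-1 and 8.06, 8.10 and 7.96 in NIL-DOG1. The rdo5-1 arrays lay below the NIL-DOG1 arrays in dry seeds and, by a margin lost at 2 decimals, in siliques. They overlapped in imbibed seeds. The differences of -0.20, -0.14 and -0.19 did not pass the test, with adjusted p of 0.577, 0.765 and 0.666.

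Of the mitochondrial proteins, UPOX is a small protein whose transcript is induced by oxidative stress. It had 6.13, 6.50 and 6.11 in rdo5-1 siliques and 6.06, 6.68 and 6.13 in NIL-DOG1 siliques, and 6.62, 6.38 and 6.68 in rdo5-1 dry seeds and 6.92, 6.88 and 6.44 in NIL-DOG1 dry seeds. The genotypes overlapped at both stages, with differences of -0.04 and -0.18 (adjusted p = 0.977 and 0.861). Imbibed seeds had 7.62, 8.01 and 7.52 in rdo5-1, against 7.01, 7.32 and 7.01 in NIL-DOG1, with no overlap. This difference of 0.60, with a standard error of 0.18 and an interval of 0.22 to 0.99, did not pass the adjustment over all genes (adjusted p = 0.226).

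OM66 encodes an AAA-type ATPase of the outer mitochondrial membrane and is a common marker of the response. Its group means lay at percentiles 11.8 to 17.8 of all signals, near the low end of the table. Its 9 rdo5-1 arrays ranged over 2.89 to 3.12 and its 9 NIL-DOG1 arrays over 2.92 to 3.19. The genotypes overlapped at each stage, as did every pair of neighbours in the order of group means. Its genotype differences were -0.03, -0.09 and -0.03 from siliques to imbibed seeds. Whether this level is above the array's background was not tested, since no detection calls accompany the values.

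NAC013 had 6.29, 6.53 and 6.34 in rdo5-1 siliques, against 6.27, 6.22 and 6.29 in NIL-DOG1 siliques, where the ranges overlapped. Dry seeds had 7.15, 7.34 and 7.15 in rdo5-1, against 7.01, 6.85 and 6.78 in NIL-DOG1. Imbibed seeds had 8.32, 8.14 and 8.42 in rdo5-1, against 7.90, 7.95 and 8.13 in NIL-DOG1. All 3 rdo5-1 arrays were above the NIL-DOG1 arrays at both seed stages. Neither difference passed the test (dry 0.33, adjusted p = 0.256; imbibed 0.31, adjusted p = 0.249).

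NAC017 acts upstream of NAC013 and is activated mainly by release of the protein from its membrane, which an array does not measure. Its 9 rdo5-1 arrays ranged over 7.34 to 7.90 and its 9 NIL-DOG1 arrays over 7.22 to 7.94. The genotypes overlapped at each stage, with differences of 0.05, 0.0027 and -0.06 and adjusted p of 0.944, 0.998 and 0.949. The interval of the imbibed difference ran from -0.26 to 0.14.

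The glycosyltransferase UGT74E2, which attaches glucose to the auxin precursor indole-3-butyric acid, had 6.36, 6.88 and 6.56 in rdo5-1 siliques and 6.56, 6.56 and 6.22 in NIL-DOG1 siliques. Dry seeds had 8.45, 8.60 and 8.47 in rdo5-1, against 8.14, 8.02 and 7.76 in NIL-DOG1. Imbibed seeds had 8.74, 8.40 and 8.78 in rdo5-1, against 7.96, 8.26 and 8.19 in NIL-DOG1. The silique groups overlapped, and in both kinds of seed every rdo5-1 array was above every NIL-DOG1 array. The dry seed difference was 0.53 (adjusted p = 0.235) and the imbibed one 0.51 (adjusted p = 0.193). With array weights in the fit, the imbibed difference was 0.56 and passed, with an adjusted p of 0.0443. That was the only 1 of 13 other settings in which it passed, and the adjusted p reached 0.540.

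UGT73B4, a stress-induced glycosyltransferase, had 3.73, 3.70 and 3.90 in rdo5-1 siliques and 3.60, 3.91 and 4.18 in NIL-DOG1 siliques. Dry seeds had 4.23, 3.94 and 4.35 in rdo5-1 and 4.44, 4.40 and 3.90 in NIL-DOG1. The genotypes overlapped at these 2 stages, with differences of -0.12 and -0.08 (adjusted p = 0.945 and 0.970). Its group means at these stages lay at percentiles 40.56 to 53.15 of all signals. Whether they are above the array's background was not tested. Imbibed seeds had 7.25, 6.35 and 7.26 in rdo5-1, against 5.17, 5.87 and 5.44 in NIL-DOG1. The lowest rdo5-1 array was still above the highest NIL-DOG1 array, and the means were 6.95 ± 0.52 and 5.49 ± 0.35 (SD, n = 3 each). The log2 fold change was 1.46 with a standard error of 0.24 and an interval of 0.95 to 1.97 (limma adjusted p = 0.0075).

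The imbibed UGT73B4 call was lost without rdo5-1 replicate 1 (adjusted p = 0.0543), without rdo5-1 replicate 3 (0.0534), without NIL-DOG1 replicate 1 (0.0521), and when only the 6 imbibed arrays were fitted (0.141), with log2 fold changes of 1.301 to 1.763 over the 6 arrays left out. UGT73B5, a tandem neighbour of the same family, had 6.11, 4.59 and 5.07 in rdo5-1 imbibed seeds and 4.40, 4.55 and 4.60 in NIL-DOG1 imbibed seeds, an overlapping difference of 0.74 (adjusted p = 0.316). Sharing of signal between such related genes was not tested. Among the rdo5-1 imbibed arrays, replicate 2 was lowest for 6 of the 9 genes, AOX1A, NDB2, NAC013, NAC017, UGT74E2 and UGT73B4, and highest for AOX1D and UPOX. Other groups also had such arrays, as rdo5-1 silique replicate 2 was highest for 8 genes and NIL-DOG1 dry replicate 3 lowest for 7. How often an array was lowest or highest over all genes was not computed. Leaving out rdo5-1 imbibed replicate 2 had to widen the differences of AOX1A and UGT73B4, for which it was lowest, and so adds no support. These differences were then 1.26 and 1.76, with limma adjusted p of 0.0126 and 0.0012.

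**Figure D2:**
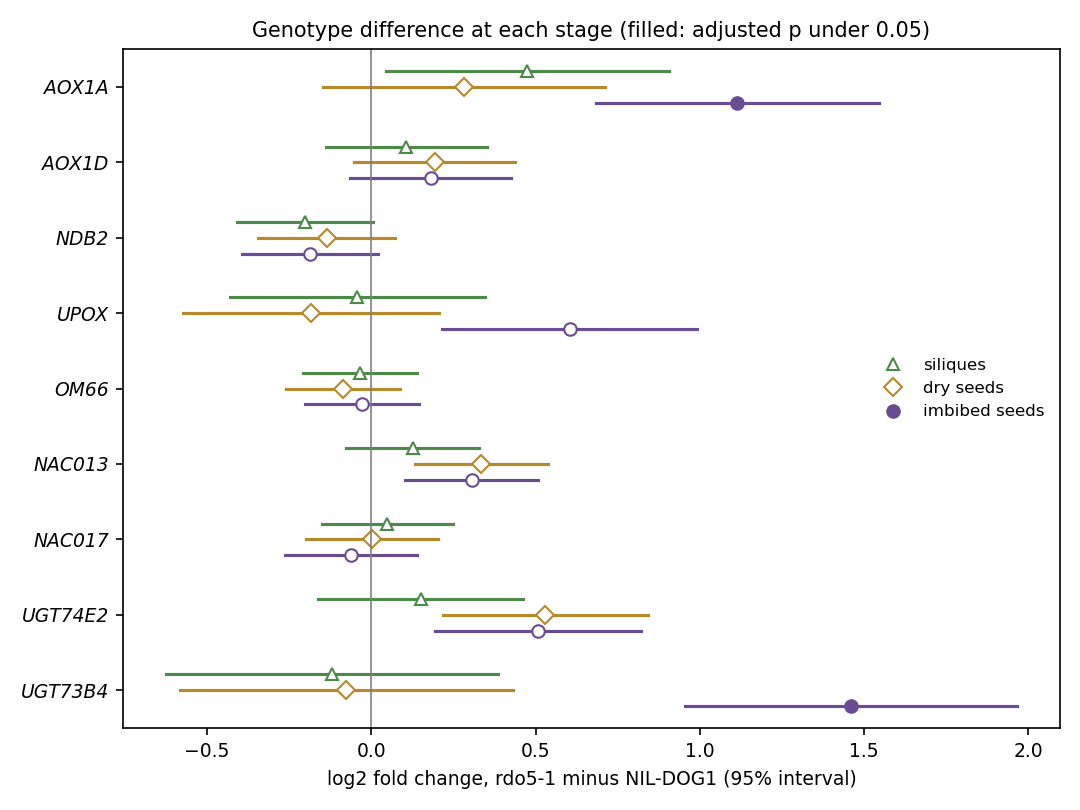
The horizontal axis gives the log2 fold change of rdo5-1 minus NIL-DOG1 for each of the 9 genes, with 95% intervals from the limma fit, in siliques (triangles), dry seeds (diamonds) and imbibed seeds (circles), filled where the adjusted p is under 0.05. The filled points are AOX1A at 1.11 and UGT73B4 at 1.46, both in imbibed seeds.

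Between siliques and dry seeds, 6 of the 9 genes changed in at least 1 genotype, and NDB2 rose where AOX1A fell. In rdo5-1, 4 genes rose in dry seeds and 1 fell, where 27.2% of all genes rose and 25.7% fell. In NIL-DOG1, 5 rose and 1 fell, where 27.4% of all genes rose and 26.6% fell. NDB2 was 7.30-fold higher in dry seeds than in siliques in rdo5-1 (adjusted p = 2.3e-13) and 6.97-fold higher in NIL-DOG1 (3.2e-13). UGT74E2 rose by 1.90 log2 units in rdo5-1 (7.3e-09) and 1.52 in NIL-DOG1 (1.2e-07). NAC013 rose by 0.83 in rdo5-1 (9.9e-07) and 0.62 in NIL-DOG1 (2.7e-05), and NAC017 by 0.45 (6.4e-04) and 0.49 (2.6e-04). AOX1A fell by 2.44 in rdo5-1 (1.8e-08) and by 2.25 in NIL-DOG1 (5.1e-08). Outside the 9, the alternative oxidase gene AOX2 rose in dry seeds, as given with the related lists below.

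UPOX differed by 0.31 between dry seeds and siliques in rdo5-1 (adjusted p = 0.172) and rose by 0.45 in NIL-DOG1 (0.0475), a call lost when only the arrays compared were fitted (0.103) and in 4 of the fits with 1 array left out. UGT73B4 differed by 0.40 in rdo5-1 (adjusted p = 0.182) and 0.35 in NIL-DOG1 (0.235), and AOX1D and OM66 were not called either. The photosynthesis genes above were higher in siliques than in the seed groups, and they do not tell green pod from green seed tissue. The part of green tissue in these stage differences was not tested. Centring each array on its median moved the median difference of all genes to 0.29 in rdo5-1 and 0.30 in NIL-DOG1, against 0.06 and 0.05 as deposited. It also moved the share of rises among called genes to 71.3% in rdo5-1 and 72.4% in NIL-DOG1, against 51.4% and 50.8%. With that centring, 8 of the 9 genes were called in each genotype, UPOX, OM66 and UGT73B4 among them, and AOX1A was still lower in dry seeds in both genotypes.

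On imbibition, AOX1A, NAC013 and UGT73B4 rose and NDB2 fell in both genotypes. In rdo5-1, 4 of the 9 genes rose and 2 fell, where 16.4% of all genes rose and 11.9% fell. In NIL-DOG1, 3 rose and 1 fell, where 14.2% of all genes rose and 10.6% fell. UGT73B4 was 6.85-fold higher in imbibed than in dry seeds in rdo5-1 (adjusted p = 2.0e-07) and 2.36-fold higher in NIL-DOG1 (8.5e-04). AOX1A was 3.18-fold higher in rdo5-1 (8.4e-06) and 1.79-fold higher in NIL-DOG1 (0.0052). NAC013 rose by 1.08 log2 units in rdo5-1 (2.7e-07) and by 1.11 in NIL-DOG1 (2.6e-07), and NDB2 fell by 0.51 (7.0e-04) and by 0.46 (0.0019).

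UPOX rose by 1.16 log2 units on imbibition in rdo5-1 (adjusted p = 1.2e-04), and its difference in NIL-DOG1 was 0.37 (0.173). NAC017 fell by 0.27 in rdo5-1 (0.0414) and differed by -0.21 in NIL-DOG1 (0.135). That NAC017 call was lost with centred arrays (0.108), array weights (0.0539), the replicate number as a block (0.0606), the compared arrays alone (0.0728) and in 5 of the fits with 1 array left out. UGT74E2 differed by 0.14 in rdo5-1 and 0.16 in NIL-DOG1 (0.543 and 0.510). AOX1D differed by -0.30 in rdo5-1 (0.0657) and -0.29 in NIL-DOG1 (0.0859), and OM66 by 0.04 and -0.02. The AOX1D difference passed in 4 of 13 other settings in rdo5-1 (adjusted p 0.0239 to 0.237) and in 1 of 13 in NIL-DOG1 (0.0448 to 0.408), where it was -0.13 without dry replicate 2. In the order of levels, imbibed seeds of rdo5-1 and then of NIL-DOG1 came first for UPOX, NAC013 and UGT73B4, with no overlap between these neighbours.

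**Figure D3:**
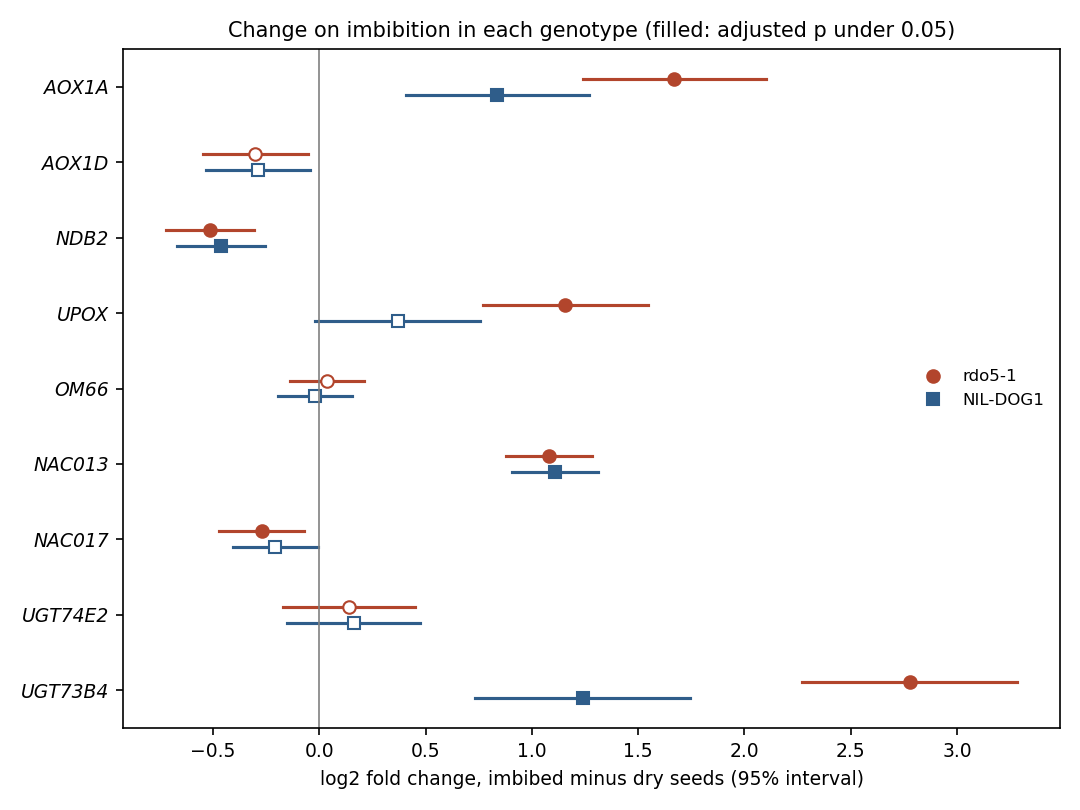
The horizontal axis gives the log2 fold change of imbibed minus dry seeds for each of the 9 genes with 95% intervals from the limma fit, in rdo5-1 (circles, upper of each pair) and NIL-DOG1 (squares), filled where the adjusted p is under 0.05. UGT73B4 changed by 2.78 in rdo5-1 and 1.24 in NIL-DOG1, and AOX1A by 1.67 in rdo5-1 and 0.84 in NIL-DOG1.

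Whether the genotype difference itself depended on stage was tested with interaction terms in the same fit. None of the 9 genes was called for imbibed minus dry seeds, where 0.0200% of all genes were, for imbibed seeds minus siliques, where 0.103% were, or for dry seeds minus siliques, where 0.04998% were. At an unadjusted p under 0.05, limma gave 3, 3 and 0 of the 9, beside 6.49%, 7.79% and 7.34% of all genes. For UGT73B4 the genotype difference in imbibed minus that in dry seeds was 1.54 ± 0.34 (SE; interval 0.82 to 2.25, adjusted p = 0.261). Against siliques it was 1.58 (interval 0.86 to 2.30, adjusted p = 0.108). For AOX1A the imbibed minus dry term was 0.83 ± 0.29 (adjusted p = 0.581), and for UPOX it was 0.79 ± 0.26 (0.546). Against siliques these genes had terms of 0.64 (0.615) and 0.65 (0.536). Leaving out rdo5-1 imbibed replicate 2, the lowest of its group for UGT73B4, had to raise the terms of this gene. They were then 1.84 against dry seeds (0.0477) and 1.88 against siliques (0.015), both past the threshold. Of 19 settings other than the main fit, 1 passed against dry seeds (adjusted p up to 0.455) and 2 against siliques (up to 0.256).

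The wider response was described with 6 lists of related genes, of which 63 genes were measured. These lists too were chosen with earlier results of these arrays known, so their counts are a description and no independent support. In imbibed seeds 2 of these 63 were higher and 1 lower in rdo5-1, beside the 0.633% of all genes called. At an unadjusted p under 0.05 there were 18 of the 63, counted in either direction, beside 8.31% of all genes. None of the 63 was called in siliques or in dry seeds, where limma gave 7 and 3 at an unadjusted p under 0.05, beside 8.89% and 8.34% of all genes. The median over the 63 in imbibed seeds was 0.06, with 45 above 0, beside -0.0031 over all genes.

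Among 14 further targets of retrograde signalling, 12 differences were above 0 in imbibed seeds, with a median of 0.09, and 1 gene was called. That gene was GSTU24 (AT1G17170), a tau-class glutathione transferase. It had 6.61, 5.87 and 6.46 in rdo5-1 imbibed seeds, against 4.19, 4.66 and 5.30 in NIL-DOG1 imbibed seeds. The groups did not overlap, and the log2 fold change was 1.59 ± 0.22 (SE; adjusted p = 0.0019), past the threshold with any 1 imbibed array left out but not with the imbibed arrays fitted alone (0.14). The target of largest difference in siliques was HSP23.5, at 0.43 (adjusted p = 0.353), and in dry seeds again HSP23.5, at -0.26 (0.649), a mitochondrial small heat shock protein.

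Of 10 other alternative respiration genes, 1 was lower in rdo5-1 imbibed seeds and the median was -0.04. NDA1, a dehydrogenase on the inner face of the inner membrane, had 8.37, 8.19 and 8.35 in rdo5-1 imbibed seeds, against 8.61, 8.69 and 8.62 in NIL-DOG1 imbibed seeds. Its difference was -0.34 ± 0.07 (SE; adjusted p = 0.0239). The call was lost with any 1 imbibed array left out (0.0543 to 0.11) and with the replicate number as a block (0.0518). It was also lost with the imbibed arrays fitted alone (0.1984). The NDA1 genotype difference in imbibed seeds minus that in siliques was also called, at -0.52 (adjusted p = 0.0459). In siliques and dry seeds NDA1 differed by 0.18 (0.419) and -0.21 (0.345), the largest of this list at both stages. AOX2, another oxidase gene, was 9.91-fold higher in dry seeds than siliques in rdo5-1 (adjusted p = 3.8e-14) and 10.98-fold in NIL-DOG1 (2.4e-14). Of the 10 genes, 3 rose and 1 fell in each genotype. Of all genes, 27.2% and 27.4% rose and 25.7% and 26.6% fell. Imbibed seeds averaged 7.96 for AOX2 in rdo5-1 and 8.32 in NIL-DOG1, a difference of -0.36 that was not called (0.146).

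Of 12 regulators of the response, 1 was higher in rdo5-1 imbibed seeds and the median was 0.06. ABI4, an abscisic acid transcription factor reported to repress AOX1A, had 6.49, 6.30 and 6.64 in rdo5-1 imbibed seeds, against 5.95, 5.85 and 5.84 in NIL-DOG1 imbibed seeds. All 3 rdo5-1 arrays were higher, by 0.59 ± 0.11 (SE; adjusted p = 0.0162). The call was lost in 4 of the 6 fits with an imbibed array left out, with adjusted p up to 0.0964. With the imbibed arrays fitted alone the ABI4 call was lost too (0.1046). The regulators of largest difference elsewhere were NAC053 in siliques, at -0.16 (0.734), and NAC016 in dry seeds, at -0.10 (0.813).

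No gene of the other lists was called between genotypes at any stage. For 15 genes of phosphorylating respiration the imbibed median was 0.05, and SDH2-1, a complex II subunit, had the largest difference at 0.23 (adjusted p = 0.358). For 6 genes of mitochondrial chaperones and a protease the median was -0.05, and HSP23.6, a mitochondrial small heat shock protein, was at -0.41 (0.414). For 6 paralogs of the 9 genes the median was 0.14, with UGT73B5 as given above. The largest differences of these lists were COX10 at 0.21 (0.456), HSP23.6 at 0.30 (0.609) and UGT73B2 at 0.15 (0.807) for siliques. For dry seeds they were COX17 at 0.20 (0.643), HSP23.6 at -0.59 (0.211) and AT3G50940 at -0.16 (0.755). All 6 genes of the chaperone and protease list rose in dry seeds over siliques in both genotypes, by medians of 1.55 in rdo5-1, where 27.2% of all genes rose, and 1.66 in NIL-DOG1, where 27.4% did. On imbibition 6 rose in rdo5-1 and 5 in NIL-DOG1, beside 16.4% and 14.2% of all genes, and the medians over all 6 were 1.17 and 1.00.

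**Figure D4:**
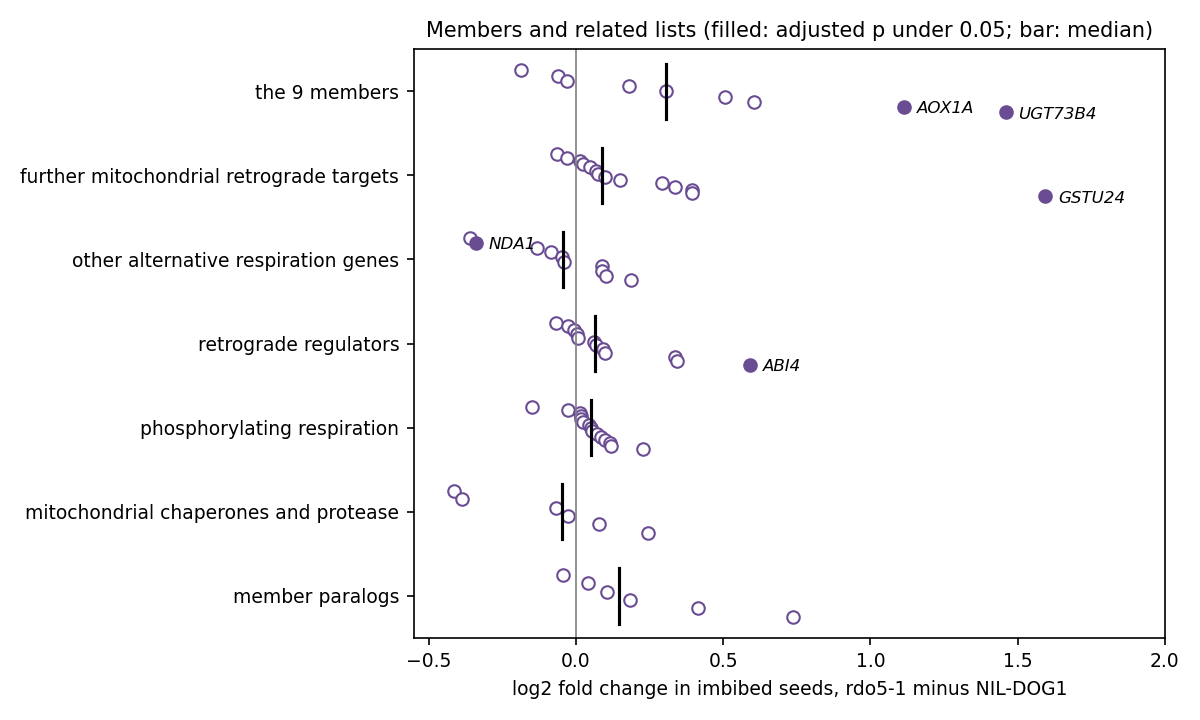
The horizontal axis gives the log2 fold change of rdo5-1 minus NIL-DOG1 in imbibed seeds, 1 point per gene, for the 9 genes and each of 6 related lists, filled where the adjusted p is under 0.05, with the median of each list as a bar. The filled points are AOX1A, UGT73B4, GSTU24 and ABI4 above 0 and NDA1 below 0.

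The genes whose values followed each of the 9 most closely over the 18 arrays, after the mean of each stage was subtracted, are given as a description. These arrays share the genotype split, so that a gene differing between genotypes at any stage is favoured. NAC013 and UGT74E2 were each other's nearest gene of the whole table, with a Pearson's r of 0.903. After UGT74E2, NAC013 was followed by AT5G66440 at 0.889 and BT3 at 0.876. UGT74E2 was followed by AGP1 at 0.885 and AT5G20000 at 0.879. For AOX1A the nearest were RPT2a at 0.911, SPS2 at 0.894 and PAA2 at 0.893, and RPT2a and PAA2 are proteasome subunits. For UGT73B4 they were DFL1 at 0.909, AT1G15410 at 0.879 and ATBFRUCT1 at 0.872.

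For NDB2 the nearest genes were AT5G60760 at 0.936, HAB1 at 0.911 and AT2G45290 at 0.897, and HAB1 is a clade A type 2C phosphatase of abscisic acid signalling. For UPOX they were AT5G43720, AT1G48740 and AT4G22310, at 0.823 to 0.837. For AOX1D, OM66 and NAC017 the highest r was 0.877 with AT2G40290, 0.802 with RALFL24 and 0.813 with AT5G52580. The remaining neighbours of these 3 lay between 0.777 and 0.858.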

How the data were processed

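The deposited table holds log2 values per gene and array, normalised by the authors with RMA, per the submitters' processing notes. The version of RMA, the probe annotation, any filter and whether all stages were normalised together were not given in the sources used here. Arrays were grouped by their labels, which call the replicates biological. The 9 genes and the related lists were chosen with earlier results of these data known. All 9 are named, and of the related lists the genes called between genotypes or, where none was, the one of largest difference. AOX2 is named besides, for its change between stages. Gene symbols of neighbours came from a TAIR10.1 gene table that held 29464 of the 30014 locus codes.

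limma 3.58.1 (R 4.3.3) fitted the 6 groups of all 18 arrays in one model with 12 residual degrees of freedom, for 10 comparisons, with Benjamini-Hochberg adjustment over all genes within each comparison and a threshold of 0.05. The procedure was tested on simulated data with independent noise and changes of a single size added to rdo5-1 imbibed seeds alone. Interaction terms and other sizes of change were not examined in it. With 3 arrays per group, their number limits the precision. Same-numbered rdo5-1 and NIL-DOG1 arrays deviated together with r of 0.0018 to 0.17 in siliques and -0.03 to 0.02 in seeds. Arrays of different number were not compared in this way, so pairing is not excluded. The main fit did not pair samples by number, and a replicate block was fitted as an alternative. Alternatives were a filter on dim genes, quantile normalisation, median centring, trend and robust settings, array weights, a replicate block, a minimum fold, fits of the compared arrays alone and leaving out each array.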

Additional observations from a re-analysis of the deposited data

How the results depend on the processing

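Direction and side of the threshold held for all 72 gene differences with limma's trend and robust settings, for 64 of 65 without the dimmest 30% of genes (OM66 falls out), and for 68 of 72 with quantile normalisation, 62 with centred arrays, 66 with array weights, 70 with the replicate block and 64 with the compared arrays alone. The replicate block left 2 of the 9 genes called in imbibed seeds. It took NDA1 there to an adjusted p of 0.0518 and NAC017 between imbibed and dry rdo5-1 seeds to 0.0606, and changed no other call of these genes. Of 468 values with 1 array left out, 413 held, 26 lost and 5 gained a call, and 24 uncalled ones changed sign. Those that held include uncalled differences that stayed uncalled. Among the losses were calls between genotypes in imbibed seeds, of AOX1A, UGT73B4, NDA1 and ABI4.

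Between genotypes in imbibed seeds, 2 of the 9 genes were called, 1 with the compared arrays alone and 0 to 2 with 1 array left out. Of the 63 related genes, 3 were called there, 6 with array weights, 1 with a log2 fold change of at least 1, 0 with the compared arrays alone and 1 to 4 with 1 array left out. Between dry seeds and siliques, the 5 calls in rdo5-1 became 8 with centred arrays and 3 with a log2 fold change of at least 1, and the 6 calls in NIL-DOG1 became 8 with centred arrays and 3 with that minimum. On imbibition in NIL-DOG1, 4 calls became 2 with it. In rdo5-1, the imbibition calls of NDB2 (-0.51) and NAC017 (-0.27) also fell short of that minimum. For the interaction of genotype with imbibed seeds minus siliques, 0 calls became 1 with array weights (UGT73B4) and 0 to 1 with 1 array left out, and for imbibed minus dry seeds 0 became 0 to 1. With fewer arrays fewer degrees of freedom remain, and apart from that the cause was not tested.

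Changes of sign touched only differences that were not called. The UPOX difference in siliques was 0.0153 with array weights, and NAC017 in dry seeds was -0.0107 with centred arrays and -0.0013 with array weights. Between dry seeds and siliques, AOX1D was 0.0134 with quantile normalisation and 0.10 with centred arrays in rdo5-1, and 0.0430 with centred arrays in NIL-DOG1, while OM66 was -0.0467 with quantile normalisation in rdo5-1. On imbibition in NIL-DOG1, OM66 was 0.0291 with quantile normalisation and 0.0028 with centred arrays. With 1 array left out, the silique genotype difference ranged over -0.1714 to 0.1522 for UPOX, -0.0844 to 0.0163 for OM66, -0.0208 to 0.0989 for NAC017 and -0.2697 to 0.0232 for UGT73B4. In dry seeds it was -0.0210 to 0.0468 for NAC017 and -0.2494 to 0.0404 for UGT73B4, and in imbibed seeds -0.0698 to 0.0426 for OM66 and -0.1273 to 0.0197 for NAC017. OM66 ranged over -0.0341 to 0.0650 between dry seeds and siliques in rdo5-1, and on imbibition over -0.0037 to 0.1088 in rdo5-1 and -0.0769 to 0.0164 in NIL-DOG1.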
